A study of Mus musculus with 2 samples.

Results

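The 7 genes described here belong to the interleukin 1 system and the inflammasome: the agonists Il1a and Il1b, the receptor antagonist Il1rn, the decoy receptor Il1r2, the inflammasome sensor Nlrp3, its protease Casp1, and the related cytokine Il18. They were chosen by name as columns of the deposited tables, and all 7 are among the 396 genes counted in every sample tag. The cells came from orthotopic tumours of 4T1, a mouse mammary carcinoma line, in female BALB/c mice of 8 weeks. Tumours were about 70 mm3 at 7 days, when mice were split into 4 arms of 6, and 2 tumours per arm were dissociated for single cells. The arms received an isotype control antibody, anti-Siglec-E, anti-PD-1, or anti-Siglec-E together with anti-PD-1.

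Interleukin 1 alpha and interleukin 1 beta bind the same signalling receptor and start inflammatory transcription through NF-kB. The receptor antagonist occupies that receptor without signalling, and the decoy receptor binds agonist without passing a signal on. Interleukin 1 beta and interleukin 18 are made as precursors that caspase 1 cuts after an inflammasome such as NLRP3 assembles, whereas interleukin 1 alpha can act uncut. Myeloid cells are a main source of both agonists, and neutrophils are known for abundant decoy receptor and antagonist. The transcripts counted here report none of the cutting, release or binding of the proteins.

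Each of the 2 samples was 1 cartridge. Tags 1 and 2 mark the arms given isotype antibody or anti-Siglec-E alone, named the no-anti-PD-1 pool below. Tags 3 and 4 mark the arms given anti-PD-1 alone or with anti-Siglec-E, named the anti-PD-1 pool. Which tag is which arm is not in the labels, so every value is given by tag and none to an arm. With 1 sample per pool there was no replicate and no test, and pool and cartridge cannot be told apart. Mice of an arm were not tagged separately, and fractions positive and negative for EPCAM were recombined 1 to 4 before loading, which sets the share of epithelial cells. The 12018 cells had 2430 in tag 1, 1515 in tag 2, 6620 in tag 3 and the others in tag 4, with medians of 1463, 1325, 1262 and 1419 molecules per cell. No cell index was shared within a cartridge, and 2 to 16 were shared between any pair of tags of different cartridges.

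Cells were gated on marker genes. Neutrophil-gated cells met no other gate and had S100a8, a neutrophil calcium-binding protein, at 1% or more of their molecules, with Lgals1 under 1%. Where the lysozyme gene Lyz2 took 1% or more of a cell's molecules, S100a8 had to reach 30%. Neutrophil-gated cells numbered 1733, 1092, 4997 and 852 in tags 1 to 4. Monocyte-gated cells, called on Lyz2, numbered 60, 46, 129 and 59, and macrophage-gated cells, called on C1qa and C1qb, numbered 51, 20, 89 and 18. Tumour-gated cells, called on Lgals1 alone, numbered 265, 94, 217 and 147, and their Epcam stood between 9866 and 12698 CPM, against 63.8 to 169 in neutrophil-gated cells. CPM is molecules per 1000000 molecules of shared genes, summed over the cells of a gate and tag. T and NK gates were small, down to 11 CD8 T, 21 CD4 T and 13 NK cells in a tag, and 1 cell could set their values. S100a8 itself was found at 3903 to 14681 CPM in the monocyte, macrophage, tumour, T and NK gates, so neutrophil RNA outside neutrophils is given beside the values it could touch.

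By GENCODE M21 on GRCm38, Il1a lies at chr2:129299610-129309972 and Il1b at chr2:129364570-129371139, both on the minus strand and 54597 bases apart. Il1rn lies on the plus strand of the same chromosome at chr2:24336853-24351494, and Il1r2 at chr1:40074079-40125231. Nlrp3 lies at chr11:59541568-59566956, Casp1 at chr9:5298517-5307265 and Il18 at chr9:50554827-50581840, all on the plus strand. The promoters below are shown because Il1a, Il1rn and Nlrp3 fell together across neutrophils as described further on, and Il1b fell less. They are RefSeq windows on GRCm38.p6 before the transcription start, 5′ to 3′ on the gene's strand, and end before the GENCODE gene begins. Capitals mark matches on either strand to the NF-kB consensus, to the C/EBP motif TTNNGNAA and to the AP-1 motif TGANTCA.

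Il1a, chr2:129309973-129310222, minus strand: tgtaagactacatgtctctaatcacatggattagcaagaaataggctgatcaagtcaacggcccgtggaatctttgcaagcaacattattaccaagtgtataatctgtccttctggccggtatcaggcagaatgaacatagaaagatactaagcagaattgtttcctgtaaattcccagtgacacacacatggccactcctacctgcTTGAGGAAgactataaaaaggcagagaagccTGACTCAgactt
Il1rn, chr2:24336610-24336852, plus strand: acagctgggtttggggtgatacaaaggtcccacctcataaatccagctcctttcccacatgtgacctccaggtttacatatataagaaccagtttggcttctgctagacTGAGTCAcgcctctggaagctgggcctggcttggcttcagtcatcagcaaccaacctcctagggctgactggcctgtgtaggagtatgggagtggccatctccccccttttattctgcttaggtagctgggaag
Nlrp3, chr11:59541319-59541567, plus strand: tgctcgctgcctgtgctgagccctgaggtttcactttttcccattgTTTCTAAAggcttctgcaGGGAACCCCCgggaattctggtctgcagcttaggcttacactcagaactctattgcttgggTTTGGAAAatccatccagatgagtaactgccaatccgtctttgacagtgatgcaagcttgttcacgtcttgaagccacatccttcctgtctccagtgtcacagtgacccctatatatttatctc
Il1b, chr2:129371140-129371389, minus strand: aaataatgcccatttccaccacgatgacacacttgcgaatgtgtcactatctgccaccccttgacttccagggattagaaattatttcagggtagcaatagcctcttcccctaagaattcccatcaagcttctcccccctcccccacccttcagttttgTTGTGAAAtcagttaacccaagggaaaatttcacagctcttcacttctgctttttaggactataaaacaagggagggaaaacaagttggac

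The Il1a window holds a C/EBP match and, nearer the start, an AP-1 match. The Il1rn window holds 1 AP-1 match, the Il1b window 1 C/EBP match, and the Nlrp3 window 2 C/EBP matches with an NF-kB match between them. No match overlaps another in these 4 windows. Among 32851 mouse promoter windows of 250 bases, 36.8% hold the C/EBP motif, 6.75% the AP-1 motif and 3.90% the NF-kB consensus. RefSeq gives 2 further windows for Il1rn and 1 for Nlrp3, at starts inside the genes, which are not printed. Those of Il1rn hold 1 and 3 C/EBP matches, that of Nlrp3 holds 1, and no AP-1 or NF-kB match lies in them. The printed windows of Il1rn and Nlrp3 are those of the most upstream start. Which start these cells used was not measured. The windows of Il1r2, Casp1 and Il18 were scanned alike, are not printed, and hold 0 matches to these motifs. That of Il1r2 lies inside its gene. The matches are descriptions of these letters and no binding was measured. Whether they bear on the fall across neutrophils was not tested.

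Il1a, the agonist active without caspase 1, was higher in monocyte-gated and macrophage-gated cells than in neutrophil-gated or tumour-gated cells in every tag. It stood at 14355, 9560, 9846 and 7238 CPM in monocyte-gated cells of tags 1 to 4, and at 9955, 7722, 9304 and 13480 in macrophage-gated cells. These overlapped. Neutrophil-gated cells had 3157, 3257, 2290 and 2318 CPM. Those poorest in S100a8, the lowest of 4 groups described further on, had 6628, 6960, 7097 and 7748 CPM. That was below the monocyte-gated and macrophage-gated values in tags 1, 2 and 3, and above the monocyte-gated value in tag 4. Tumour-gated cells had 696, 860, 1571 and 818 CPM. The level that neutrophil RNA would bring there, taken from S100a8 and the mean neutrophil-gated cell, is 29.1 to 74.0 CPM. Taken from the neutrophil group poorest in S100a8 it is 741 to 981 CPM, which the measured value did not reach in tag 1 and passed in tags 2, 3 and 4. In NK-gated cells of tag 2 the value was 21526 CPM, and a single cell held 100% of those 484 molecules. CD8 T-gated cells of tag 4 had 6308 CPM, with 30.7% of it in 1 cell, against 0 to 1197 CPM in the other tags. Because neutrophils outnumbered the other types, neutrophil-gated cells still held 38.9 to 51.5% of all Il1a molecules of a tag.

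Il1b, the agonist that needs caspase 1, was on average highest in the 3 myeloid gates. It measured 575, 571, 267 and 276 CPM in neutrophil-gated cells, 834.4, 757, 290 and 399 in monocyte-gated cells, and 454, 368, 332 and 210 in macrophage-gated cells. The ranges over tags of these 3 gates overlapped. Tumour-gated cells had 36.2, 17.3, 25.1 and 6.43 CPM, from 38, 6, 17 and 3 molecules. CD4 T-gated cells had 0 to 165 CPM and CD8 T-gated cells 0 to 96.7. NK-gated cells of tag 2 had 489 CPM, above every macrophage value, from 11 molecules of a single cell, and 0 to 48.4 in the other tags. B-gated cells, 43 in all, held 0 Il1b molecules. Neutrophil-gated cells held 66.5 to 76.1% of each tag's Il1b molecules.

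The antagonist Il1rn was highest in neutrophil-gated cells, at 17443, 17625, 11063 and 11004 CPM in tags 1 to 4. Macrophage-gated cells followed with 9555, 9943, 9223 and 9915 CPM, and monocyte-gated cells with 9699, 9257, 7925 and 7963. The neutrophil range did not overlap that of macrophage-gated cells, and the macrophage and monocyte ranges did overlap. Of the monocyte value, 3756 to 7170 CPM is what their S100a8 would bring with RNA like that of the S100a8-poorest neutrophils, and 175 to 567 CPM with RNA of the mean neutrophil-gated cell. Tumour-gated cells had 1344, 1079, 595 and 259 CPM, lower in both tags of the anti-PD-1 pool. Their S100a8 fell in the same order of tags, from 7508 and 6616 to 5338 and 5155 CPM, and its part in that difference was not tested.

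The decoy receptor Il1r2 was the member most restricted to neutrophils. Neutrophil-gated cells had 13331, 13862, 11038 and 10777 CPM and held 81.9 to 87.8% of each tag's molecules. Among gates with at least 10 cells in every tag, CD4 T-gated and macrophage-gated cells came next with overlapping ranges. Cells gated on Flt3, a dendritic cell marker, were fewer, at 9, 8, 53 and 8 in tags 1 to 4. Their Il1r2 stood at 2505 to 7336 CPM over tags, which overlapped the ranges of CD4 T-gated and macrophage-gated cells. The monocyte range overlapped the macrophage range and lay below that of CD4 T-gated cells. Macrophage-gated cells had 3995, 5415, 3434 and 2260 CPM and monocyte-gated cells 2773, 3596, 1791 and 2652. At the ratio of the S100a8-poorest neutrophils, neutrophil RNA would bring 1895 to 3996 CPM to the monocyte gate, above the measured value in tags 1, 2 and 3.

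CD4 T-gated cells held Il1r2 at 4300, 4002, 4027 and 3653 CPM in tags 1 to 4, from gates of 21, 25, 129 and 52 cells. A molecule was found in 42.9, 40.0, 31.0 and 44.2% of them, and 1 cell held 34.8, 32.0, 14.2 and 28.9% of the molecules. CD8 T-gated cells had 1604, 171, 1354 and 471 CPM and NK-gated cells 241, 356, 638 and 0, each below the CD4 T value of the same tag. S100a8 in CD4 T-gated, CD8 T-gated and NK-gated cells was 11092, 7195 and 14681 CPM in tag 1, 8082, 7949 and 5604 in tag 2, 10901, 8923 and 9296 in tag 3, and 5912, 4145 and 5376 in tag 4. CD4 T-gated cells thus had the most S100a8 of these gates in tags 2, 3 and 4, as they had the most Il1r2. At the S100a8-poorest ratio it would bring 1718 to 4032 CPM of Il1r2 to CD4 T-gated cells, below the measured value in each tag. CD4 T-gated cells were then split by Foxp3, the transcription factor of regulatory T cells, a split chosen after these values were seen. The cells with a Foxp3 molecule were deeper, with medians of 918, 1124, 781.5 and 745 molecules in tags 1 to 4 against 498, 669, 542 and 657, and the shares were not thinned. Among cells with a Foxp3 molecule, 75.0, 71.4, 55.0 and 56.5% had an Il1r2 molecule in tags 1 to 4. Among cells without one, 23.1, 27.8, 20.2 and 34.5% did. The cells with Foxp3 numbered only 8, 7, 40 and 23. The exact 95% intervals were apart in tag 3, at 38.5 to 70.7% with Foxp3 and 12.4 to 30.1% without, and overlapped in tags 1, 2 and 4. The part of depth in this difference was not tested. The CPM did not separate the groups in every tag: in tag 3 it was 3889 with Foxp3 and 4173 without, where 1 cell held 20.4 and 28.2% of the molecules. In tags 1, 2 and 4 it was 5812, 6509 and 3820 with Foxp3 and 3006, 2158 and 3451 without. There 1 cell held 55.8, 46.5 and 27.3% of the molecules with Foxp3 and 61.5, 84.4 and 67.6% without.

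Nlrp3, the sensor, was found in all 3 myeloid gates. It measured 1236, 1237, 1274 and 1571 CPM in monocyte-gated cells, 1044, 1042, 979 and 979 in neutrophil-gated cells, and 833.5, 834.0, 991 and 1130 in macrophage-gated cells. The monocyte range lay above the neutrophil range, which overlapped the macrophage range. This order depended on the scale: per 1000000 molecules without S100a8 and S100a9, neutrophil-gated cells were higher on average, at 1551 to 1677 against 1247 to 1582 in monocyte-gated cells, ranges that overlapped. In tumour-gated cells Nlrp3 was at 47.7, 8.63, 69.3 and 29.98 CPM, and B-gated cells held 0 molecules.

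Casp1 and Il18 had another distribution, with tumour-gated cells among the highest. Casp1, the protease, measured 886, 935, 1232 and 1043 CPM in tumour-gated cells and 878, 1282, 864 and 918 in monocyte-gated cells, which overlapped. CD4 T-gated cells had 685, 1204, 668 and 929 CPM, a range that overlapped both. Neutrophil-gated cells had less in every tag, at 507, 496, 475 and 469 CPM. Il18 measured 365, 351, 234 and 238 CPM in tumour-gated cells and 307, 249.2, 251 and 236 in monocyte-gated cells, which again overlapped. Neutrophil-gated cells had 155, 156, 80.7 and 89.7 CPM, and macrophage-gated cells 71.2, 108, 52.3 and 58.3. Neutrophil RNA would bring at most 76.7 CPM of Casp1 and 28.2 CPM of Il18 to the tumour gate, even at the ratio of the S100a8-poorest neutrophils. Nlrp3 and Il1b in the same cells did not pass 69.3 and 36.2 CPM.

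**Figure D1:**
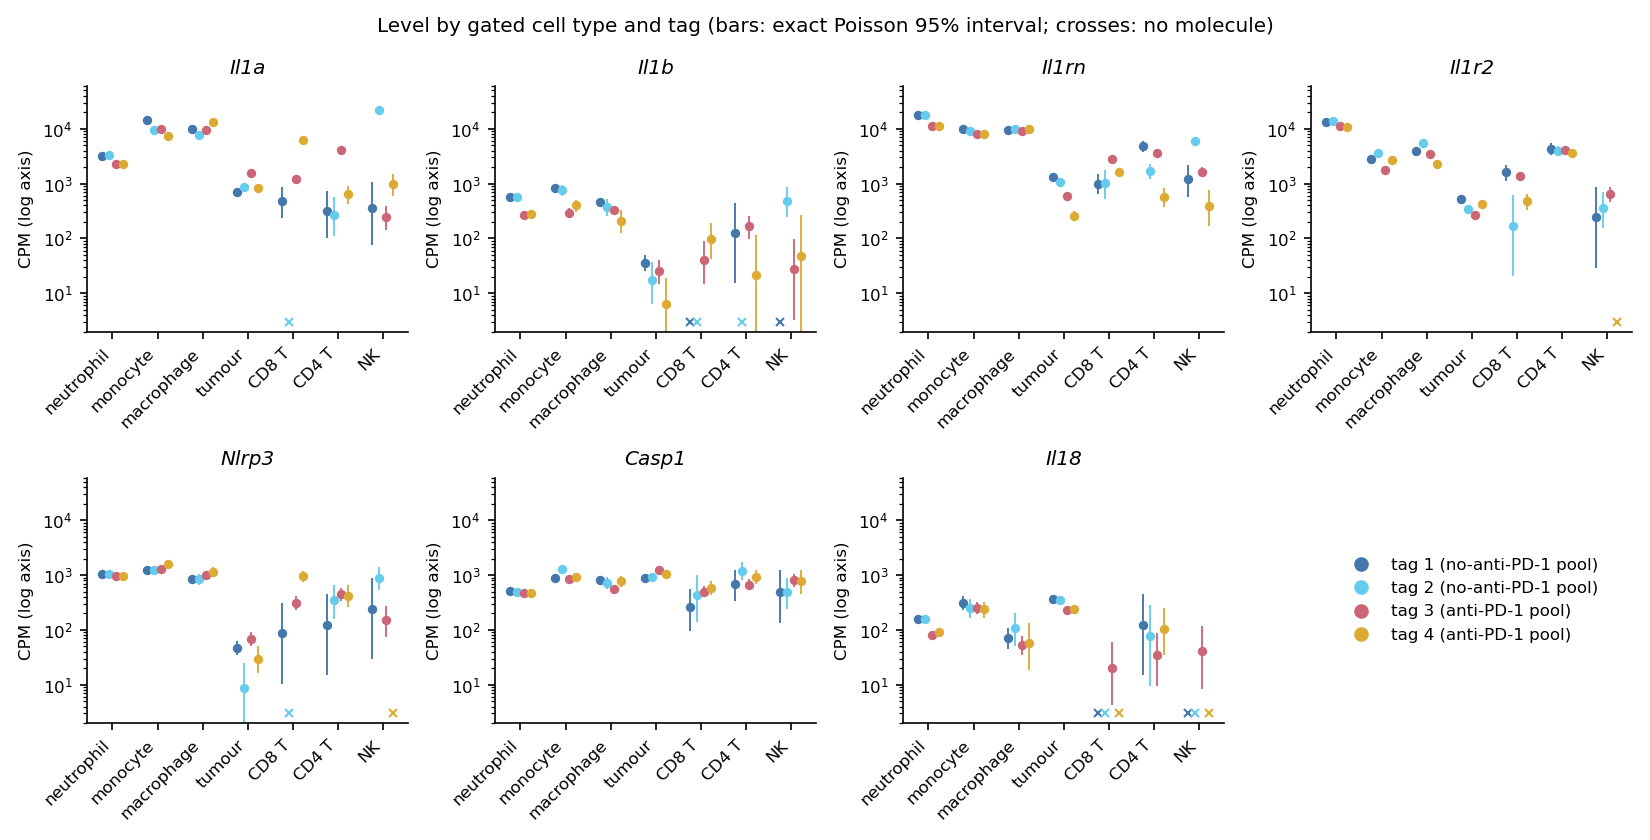
Level of each gene (CPM, log axis) in 7 gated cell types, 1 point per tag with its exact Poisson 95% interval, and a cross at the bottom where no molecule was found. Il1r2 and Il1rn peak in neutrophil-gated cells, Il1a in monocyte-gated and macrophage-gated cells, and Casp1 and Il18 are as high in tumour-gated as in monocyte-gated cells.

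The balance of inhibitor to agonist was read as Il1rn or Il1r2 molecules per Il1a and Il1b molecule, which needs no scaling by other genes. Each target has its own capture yield, so the ratios compare cells with cells and are not protein ratios. Il1rn per agonist was 4.67, 4.60, 4.33 and 4.24 in neutrophil-gated cells of tags 1 to 4. It was 0.639, 0.897, 0.782 and 1.04 in monocyte-gated cells, and 0.918, 1.23, 0.957 and 0.724 in macrophage-gated cells. Every neutrophil value lay above every monocyte and macrophage value, and the latter overlapped each other. In tumour-gated cells it was 1.84, 1.23, 0.375 and 0.314.

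The decoy receptor gave a wider gap. Il1r2 per agonist was 3.57, 3.62, 4.32 and 4.15 in neutrophil-gated cells, against 0.183, 0.349, 0.177 and 0.347 in monocyte-gated and 0.384, 0.669, 0.356 and 0.165 in macrophage-gated cells. Without the 5% of cells with most molecules in each tag, the mean Il1rn ratio of macrophage-gated cells was 1.33, above its range over tags. Between the agonists, Il1a per Il1b was 5.49, 5.70, 8.57 and 8.39 in neutrophil-gated cells and lay between 12.6 and 64.3 in monocyte-gated and macrophage-gated cells.

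Neutrophil-gated cells were divided into 4 groups of equal size by the S100a8 share of their molecules, group 1 lowest, cut at 10.1, 23.4 and 42.2%. Median molecules per cell rose over groups 1 to 4, at 803, 988.5, 1340.5 and 2603. Without S100a8 and S100a9 the medians were 759, 826, 910.5 and 1106. Group 1 begins at 1.00% S100a8, the edge of the gate, so its cells are the least surely neutrophils. The part of depth and of the gate's edge in the differences between groups was not tested. Because S100a8 takes up to 80.5% of a cell's molecules, any other gene's CPM is pushed down where it is high: the median gene had a log2 difference of -1.22 between the top and bottom groups. Levels per 1000000 molecules without S100a8 and S100a9 were therefore set beside CPM, and there the median gene stood at -0.05. A gene was called higher or lower where the top group differed from the bottom at least 1.5-fold, the same way, in every tag that counted it.

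Il1a had the steepest mean fall of the 7 on either scale, although in tag 2 Nlrp3 fell more. Its CPM went from 6628, 6960, 7097 and 7748 in the lowest group to 815, 842, 432 and 549.8 in the highest, with no overlap. Il1rn went from 35645, 37183, 29694 and 29744 CPM to 4864, 4960, 2490 and 3104. Nlrp3 went from 2171, 2131, 2538 and 2918 CPM to 291, 228, 284 and 296. Each of these 3 fell step by step through the middle groups in all 4 tags.

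Without S100a8 and S100a9 in the denominator these 3 were still called lower, with mean log2 differences over tags of -2.32 for Il1a (range -2.80 to -1.93), -1.99 for Il1rn (-2.33 to -1.78) and -1.98 for Nlrp3 (-2.12 to -1.81). On that scale 17% of 330 genes were called lower and 20.6% higher. Casp1 was the 1 member called higher, at 0.89 (0.73 to 1.04). On CPM Casp1 was not called and had the opposite sign, at -0.27.

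Il1r2 behaved differently from the antagonist. Its CPM went from 18437, 20725, 15084 and 15004 in the lowest group to 9507, 9792, 8329 and 8280 in the highest, a called fall of -0.94 on the log2 scale. Without S100a8 and S100a9 the difference was 0.23 (0.02 to 0.39) and not called, so its direction depended on the scale. Il1b gave -1.89 on CPM, called, and -0.73 without S100a8 and S100a9, not called. Il18 gave -1.76, called, and -0.60, not called, and its highest CPM was in the second group in tags 1, 3 and 4. On CPM 6 of the 7 genes were thus called lower, where 48.2% of 330 genes were called lower and 8.18% higher.

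**Figure D2:**
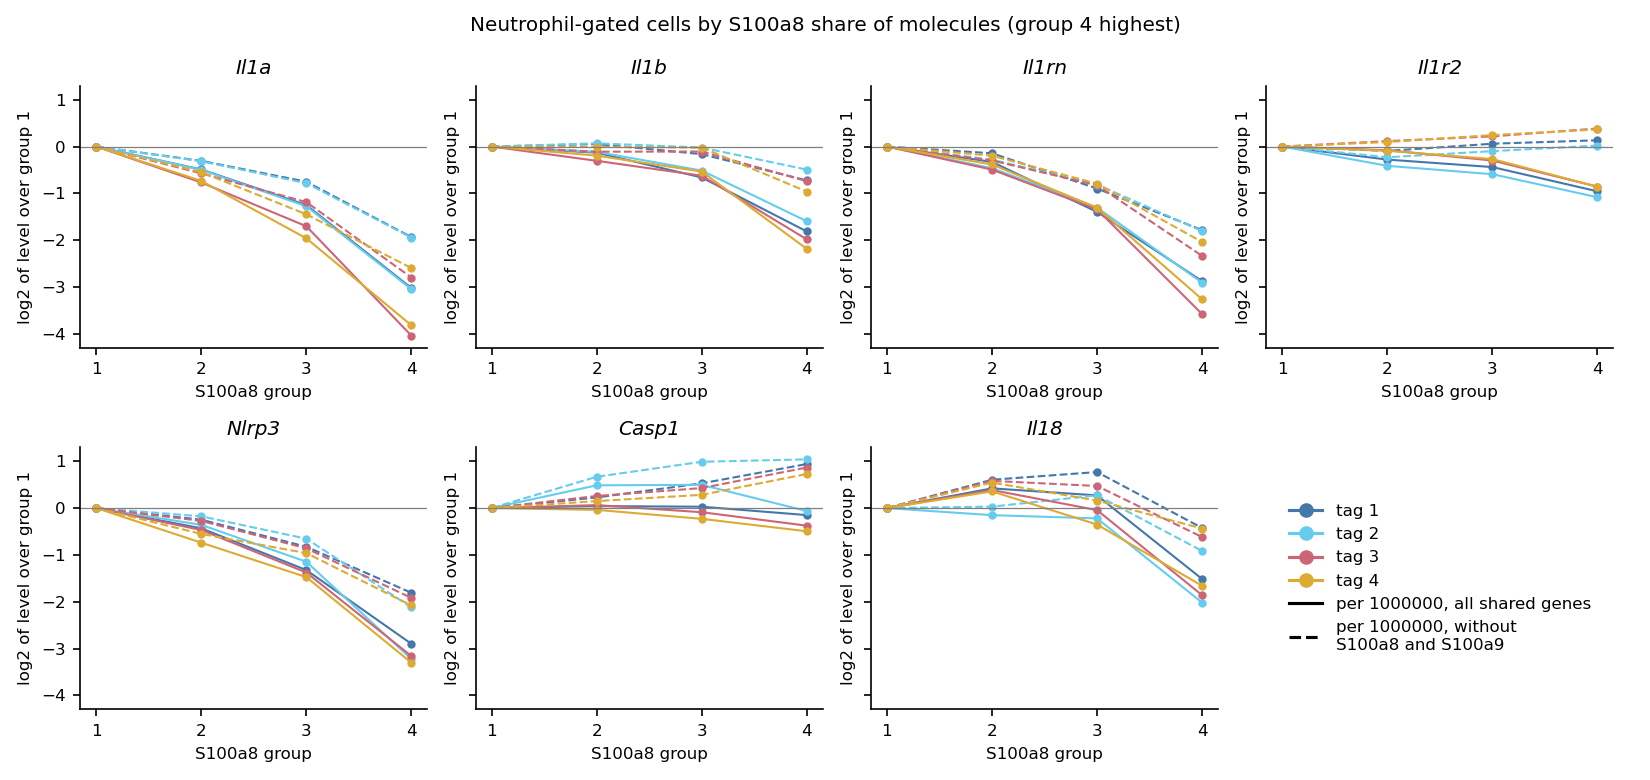
Log2 of each gene's level over its level in the lowest S100a8 group, in neutrophil-gated cells of each tag, on CPM (solid) and per 1000000 molecules without S100a8 and S100a9 (dashed). Il1a, Il1rn and Nlrp3 fall on both scales, whereas Il1r2 and Casp1 end below their start on the solid lines and above it on the dashed ones.

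Ratios between the genes, free of the scale, showed the same split. Il1rn per agonist was nearly level across groups, at 4.73, 4.76, 3.91 and 3.59 in the lowest and 4.53, 4.40, 4.44 and 4.63 in the highest. Il1r2 per agonist rose from 2.45, 2.65, 1.98 and 1.81 to 8.86, 8.69, 14.9 and 12.4, with no overlap between these groups. In the third group it was 4.05, 3.96, 4.89 and 5.26. The decoy receptor rose against the antagonist as well: Il1rn per Il1r2 went from 1.93, 1.79, 1.97 and 1.98 to 0.512, 0.507, 0.299 and 0.375. Il1a per Il1b fell from 7.34, 8.12, 14.0 and 14.1 in the lowest group to 3.17, 2.97, 3.37 and 4.56 in the highest.

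**Figure D3:**
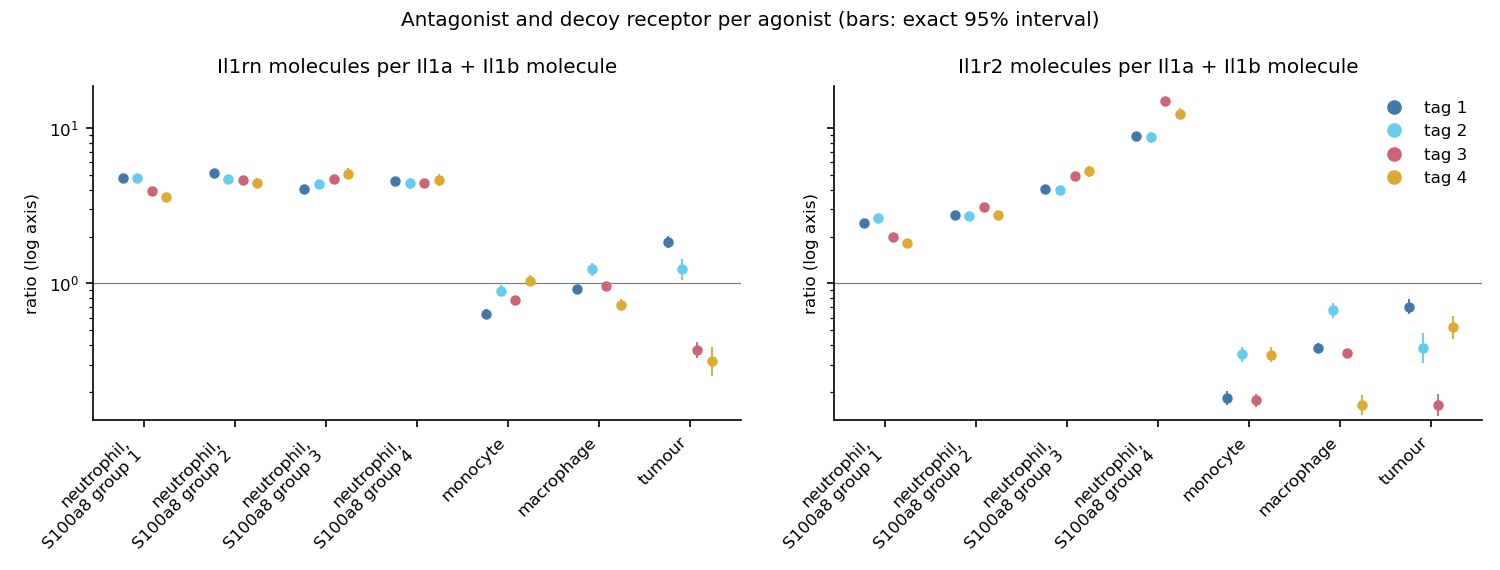
Il1rn (left) and Il1r2 (right) molecules per Il1a and Il1b molecule (log axis) in the S100a8 groups of neutrophil-gated cells and in 3 other gates, 1 point per tag with its exact 95% interval. The left ratio stays between 3.59 and 5.12 in all neutrophil groups, and the right one climbs from 1.81 to 2.65 in group 1 to 8.69 to 14.9 in group 4.

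Other interleukin 1 pathway genes, from a list of receptors, adaptors and NF-kB factors, were read by the same rule. Of 14 measured, 9 were called lower on CPM and 0 higher, beside 48.2% lower and 8.18% higher over all genes. Without S100a8 and S100a9, where 17% of all genes were lower and 20.6% higher, 2 were lower: Traf6, the ubiquitin ligase below the receptor, at -1.42, and Nfkb2, an NF-kB subunit, at -0.80. The adaptor Myd88 was called higher at 1.65. The list median was -0.32, against -0.05 over all genes. Of 11 measured genes that interleukin 1 is known to induce, 5 were lower and 0 higher on that scale, with a list median of -1.65. They were the chemokine genes Cxcl2, Cxcl3, Ccl3 and Ccl4 and the adhesion molecule gene Icam1. Cxcl3 was counted in tags 2 to 4 alone. The signalling receptor gene Il1r1 was not analysed here.

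Within a group, neutrophil-gated cells also differed by whether they held Il1a. Each cell was thinned to 500 molecules and classed as holding 0, 1 to 2, or 3 or more Il1a molecules. In the lowest group, mean Il1rn per cell was 12.4 to 17.0 over tags in cells with no Il1a and 16.6 to 21.6 in cells with 3 or more. Mean Il1r2 went the other way, from 9.62 to 13.2 down to 6.44 to 8.77. Nlrp3 went from 0.743 to 1.35 up to 1.30 to 1.94. In each of the 3 lower groups Il1rn and Nlrp3 were higher, and Il1r2 lower, in Il1a-rich cells in all 4 tags. Il1b and Casp1 had no common direction: Il1b was higher in 3, 2 and 2 tags and Casp1 in 3, 2 and 3 tags of groups 1, 2 and 3. Mean S100a8 was also lower in Il1a-rich cells, in all 4 tags of groups 1 and 2 and in tags 1, 3 and 4 of group 3. In group 1 it was 23.3 against 25.8 molecules in tag 1 and 21.0 against 28.2 in tag 4. In group 3 it was 155 against 164 in tag 3. The part of S100a8 was not tested. In the highest group such cells were few, with 10 in tag 1 and 26 in tag 3, and it was left out of this comparison.

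**Figure D4:**
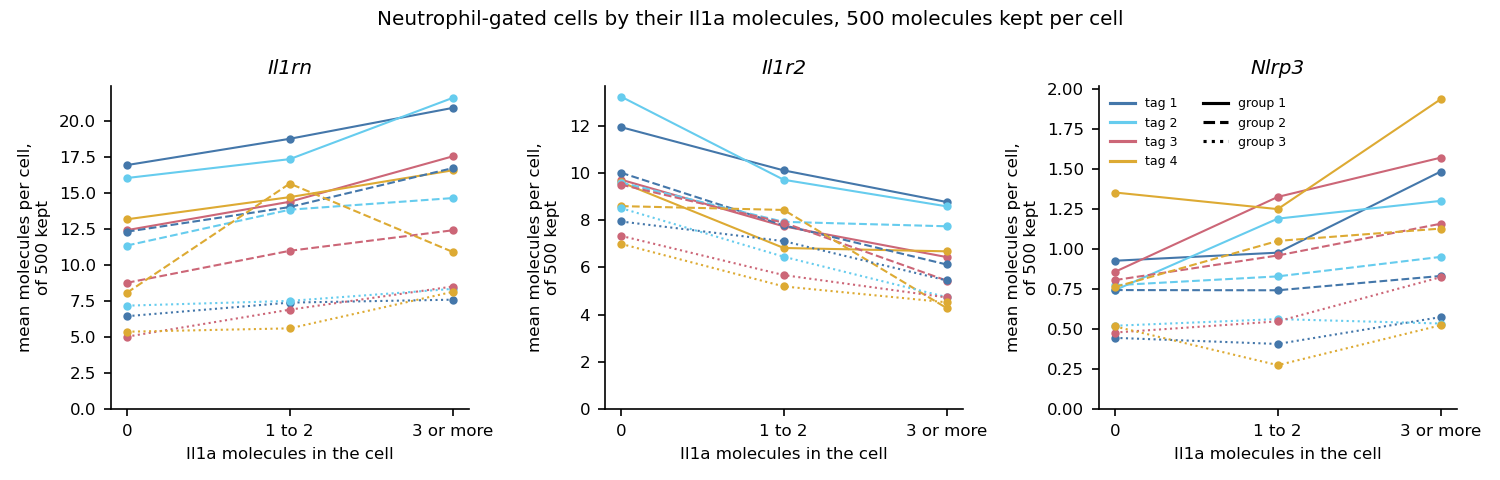
Mean molecules per cell (of 500 kept) of Il1rn, Il1r2 and Nlrp3 in neutrophil-gated cells by the number of Il1a molecules in the cell, for each tag (colour) and S100a8 group 1 to 3 (line type). Il1rn is higher and Il1r2 lower in cells with 3 or more Il1a molecules than in cells with none, on every line.

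The study asked how blocking Siglec-E, PD-1 or both acts on these tumours, and the 2 pools differ by anti-PD-1 and by cartridge. A gene with at least 30 molecules was called between pools when its 4 tags separated by pool and a gap of at least 1.5-fold lay between the closest tags of the pools. In neutrophil-gated cells 3 of the 7 genes passed this rule as lower with anti-PD-1 and 0 as higher, where 16% of 300 genes were called lower and 2.33% higher. Il1b had the widest gap, with the 575 and 571 CPM of the no-anti-PD-1 pool against 267 and 276. Its log2 difference was -1.08 and its nearest tags lay 2.07-fold apart. Il18 gave -0.87 with nearest tags 1.73-fold apart, and Il1rn -0.67 with nearest tags 1.58-fold apart. The median gene stood at -0.34.

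The other 4 genes were not called. Il1a gave -0.48, Il1r2 -0.32, Nlrp3 -0.09 and Casp1 -0.09. For all 7 the tags of the pools did not overlap, as for 71.3% of the 300 genes. Scaling mattered here: with TMM factors, which centre the typical gene, Il1b stayed called while Il1rn at -0.33 and Il18 at -0.54 were not. TMM also gave Il1r2 0.02, Nlrp3 0.24 and Casp1 0.25, so their signs depended on the scale. Tags of the same pool were close to each other in neutrophil-gated cells, from 1.00-fold to 1.11-fold apart for all 7 genes. Il1b in tag 2 was 0.994 of tag 1 (exact 95% interval 0.919 to 1.07), and in tag 4 it was 1.03 of tag 3 (0.931 to 1.14). One tag of each pool carries anti-Siglec-E, and the labels do not say which.

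S100a8 differed between the pools as well, since the highest group held 18.8 and 19.2% of neutrophil-gated cells in tags 1 and 2 and 27.6 and 30.05% in tags 3 and 4. Il1b was lower in the anti-PD-1 pool within each group. It measured 903, 857, 506 and 548 CPM in the lowest, 825, 793, 410 and 479 in the second, 572, 601, 329 and 379 in the third, and 257, 284, 128 and 121 in the highest. The nearest tags were 1.56, 1.65, 1.51 and 2.01-fold apart, all past the rule. Genes called lower made up 6.41, 4.05, 9.63 and 17.2% of those measured in groups 1 to 4, and genes called higher 2.99, 2.25, 0.917 and 1.23%.

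Il1a showed no such shift in the lower groups, with log2 differences of 0.13 and -0.13 in groups 1 and 2, -0.44 in group 3 and -0.76 in group 4, none called. Il1rn was called in the highest group alone, at -0.81, and Il18 in the third alone, at -0.85. Nlrp3 was higher in the anti-PD-1 pool in the lowest group, at 2171 and 2131 against 2538 and 2918 CPM, under the 1.5-fold rule. Il1a per Il1b was 7.34 and 8.12 against 14.0 and 14.1 in the lowest group, a ratio that no scaling touches. With the same mixture of groups in every tag, Il1b was the 1 member still called.

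**Figure D5:**
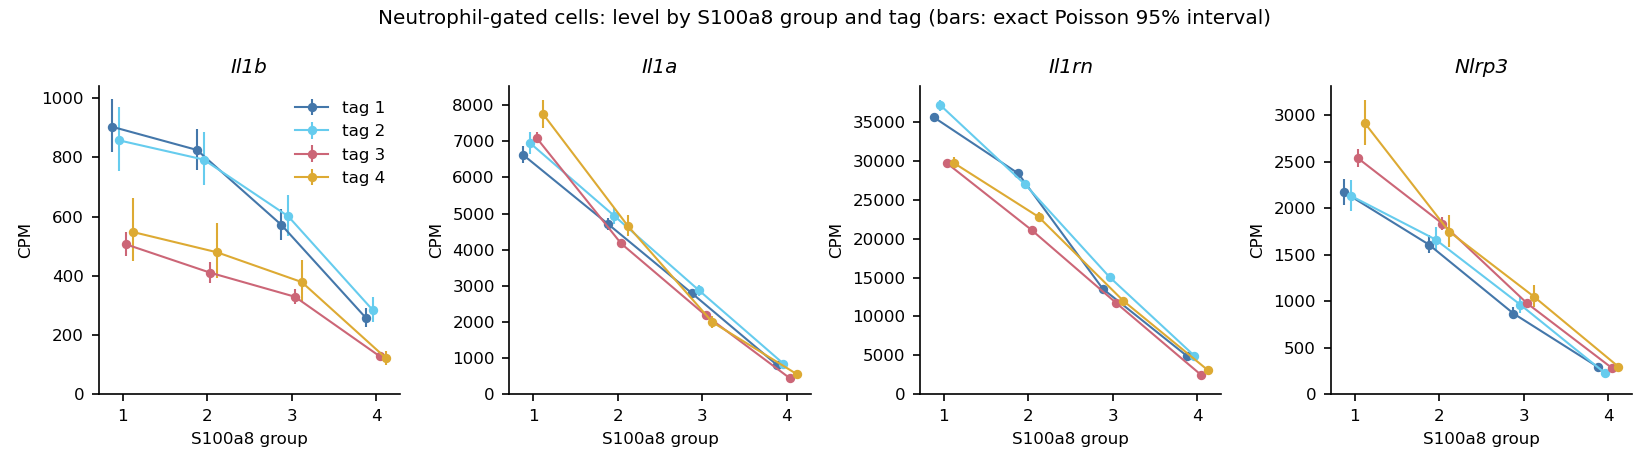
CPM of Il1b, Il1a, Il1rn and Nlrp3 in neutrophil-gated cells by S100a8 group, 1 line per tag with exact Poisson 95% intervals. For Il1b the lines of tags 3 and 4 lie below those of tags 1 and 2 in every group, whereas for Il1a and Nlrp3 they do not in every group.

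In monocyte-gated cells Il1b was the 1 member called, with 834.4 and 757 against 290 and 399 CPM, a log2 difference of -1.21 with nearest tags 1.90-fold apart. There 3.21% of 218 genes were called lower and 3.21% higher, and the pools did not overlap for 46.8%. The call rests on 133, 85, 82 and 66 molecules, and it was lost, at -1.07, without the 5% of cells with most molecules. Without tag 4 Il1r2 was called lower as well, with nearest tags 1.55-fold apart. In tumour-gated cells Il1rn was the 1 member called lower, at -1.50, where 6.12% of 245 genes were lower, 5.31% higher, and 53.9% without overlap. Neutrophil RNA at the ratio of the S100a8-poorest neutrophils would bring 2970 to 5275 CPM of Il1rn there, above the measured value in every tag, and 138 to 409 CPM at the ratio of the mean neutrophil-gated cell. The share of cells with an Il1rn molecule, not thinned, was 84.2, 79.8, 28.1 and 29.9% in tumour-gated cells of tags 1 to 4. It was lower in tags 3 and 4 in other gates too, at 57.1, 52.0, 20.9 and 19.2% in CD4 T-gated, 53.8, 54.5, 23.3 and 27.6% in CD8 T-gated and 46.2, 60.0, 19.8 and 28.6% in NK-gated cells. The part of neutrophil RNA in the tumour-gated call was not tested. The nearest tags were 1.81-fold apart, 4.16-fold without tag 3 and 3.003-fold without the 5% of cells with most molecules, where Il1r2 and Il18 were called lower as well, at 1.68-fold and 1.60-fold. Without tag 1 Nlrp3 was called higher, without tag 4 Il1a higher, without tag 2 Il18 lower and without tag 3 Il1b lower, at 3.47, 1.83, 1.54 and 2.69-fold. In macrophage-gated cells, with 20 and 18 cells in tags 2 and 4, 0 of 7 were called, where 6.75% of 237 genes were lower, 1.27% higher, and 48.1% without overlap. Il1b there gave -0.60 and Il1a 0.37. Il1r2 was called lower there without tag 1 or tag 3 (1.58-fold and 1.77-fold), Il18 without tag 1 (1.86-fold) and Il1b without tag 3 (1.76-fold).

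Of the pathway list, 1 of 14 genes measured in neutrophil-gated cells was lower by this rule with anti-PD-1 and 0 were higher, beside 16% lower and 2.33% higher over all genes. That was Il33, an alarmin of stromal cells, at 5.66 against 1.55 CPM. Of 9 measured interleukin 1-induced genes, 3 were lower and 0 higher, against the same 16% and 2.33%: Il6 at 52.5 against 4.39 CPM, Cxcl1 at 752 against 342 and Icam1 at 1032 against 668. Il33 and Il6 were sparse, with 4 and 120 molecules in the lowest S100a8 group and 10 and 48 in the highest. In the lowest group Il6 ranged from 10.1 to 330 CPM over tags. Tnf, another of that list, gave -0.27 and was not called.

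The share of cells with a molecule was read after thinning to 500 molecules, which left out 596 of 8674 neutrophil-gated cells. Il1r2 was found in 93.4, 93.5, 92.0 and 90.3% of neutrophil-gated cells in tags 1 to 4, and Il1rn in 90.9, 91.4, 78.0 and 78.1%. Il1a was found in 44.9, 45.6, 35.3 and 36.6% and Il1b in 23.8, 22.6, 13.9 and 15.6%. Nlrp3 was found in 36.7 to 39.0%, Casp1 in 18.0 to 20.3% and Il18 in 4.16 to 7.94%. Without thinning the ranges were 97.1 to 97.9% for Il1r2, 91.3 to 98.3% for Il1rn, 46.9 to 60.7% for Il1a and 29.4 to 45.6% for Il1b.

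NK-gated cells, which should lack Il1b, Il1a and Il1rn, were taken as the background, with a median of 740 molecules against 1239 in neutrophil-gated cells. The B and T cell gates had been named for this beforehand, and 19 B-gated cells remained after thinning. Thinned alike, NK-gated cells had Il1b in 0 to 1.45%, Il1a in 1.45 to 20.0% and Il1rn in 9.09 to 40.0% of cells. Il1b was found in 0 to 6.02% of CD4 T-gated and 0 to 0.870% of CD8 T-gated cells. Tumour-gated cells had Il1b in 0 to 1.47%, a range that overlapped the background and rested on 0 to 3 cells in a tag. Their Casp1 share was 28.5 to 43.6%, which overlapped the 7.69 to 31.9% of NK-gated and the 23.1 to 50.0% of CD4 T-gated cells. The Il18 share of tumour-gated cells was 7.59 to 15.2%, against a background of 0 to 1.45% in NK-gated cells. Il18 in macrophage-gated cells, in 0 to 6.25%, was not separated from it in tag 3.

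Genes most alike in profile were found over the 3 gates with at least 30 cells in every tag, neutrophil, monocyte and tumour, which give 12 points that share libraries and depth. Il1b was most like the chemokine genes Cxcl2 and Ccl3, at Pearson r of 0.986 and 0.983, and Tnfrsf1b at 0.980. Il1rn was most like Trem1, C5ar1 and Ccl3 at 0.983, 0.979 and 0.973, and Il1r2 like Entpd1, Cd33 and Tlr1 at 0.985, 0.977 and 0.969. Il1a was most like Itga4, Cd69 and Tlr7 at 0.982, 0.969 and 0.959. Nlrp3 was most like Ptprc, Cd274 and Cd52 at 0.991, 0.990 and 0.989. Casp1 was most like the class II genes H2-Eb1, H2-DMb2 and H2-DMa at 0.952, 0.952 and 0.940, and Il18 like Cxcl1, Jak2 and Casp8 at 0.954, 0.938 and 0.936. Over 28 points from the 7 gates with at least 10 cells in every tag, a choice made after seeing the data, Tlr7 stayed among the 3 most like Il1a, Tlr1 among those of Il1r2 and Cd274 among those of Nlrp3. All other leading genes were replaced, so these likenesses depend on which gates enter.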

How the data were processed

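The unit is the count of molecules of a target in a cell. The authors obtained these counts from the BD Rhapsody pipeline, version 1.12.1, after distribution-based error correction, per the file headers. The submitters' processing notes name Seurat 3.2.0. No aligner or build is named here, as these were not given in the sources used here. The reference behind tag 1 (397 targets, 396 genes) differed from that of tags 2 to 4 (468 genes), so the 396 shared genes set the CPM. The minimum of 50 molecules per cell removed 0 cells, and no doublets were called; 309 cells meeting more than 1 gate and 241 of another gate with neutrophil-level S100a8 entered no gate. Gate markers were listed first, and gate thresholds were set after the counts were seen. Near the thresholds, 355 neutrophil-gated cells had 1 to 2% S100a8 and 87 tumour-gated cells 5 to 7% Lgals1. Chil3 or Elane, markers of immature neutrophils, reached 3 molecules in 363 neutrophil-gated cells.

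Molecules were summed per gate and tag, with exact Poisson 95% intervals for levels and exact Clopper-Pearson 95% intervals for shares and ratios; both cover counting error only. Shared-gene totals were 5318288, 2993684, 12416134 and 3074544 molecules in tags 1 to 4. No test was run, as each pool is 1 sample and tags are not replicates. In pool ratios, 3 counts stood in for a tag with 0. Both call rules were tested on simulated data. Named genes are the 7 members, up to 10 genes of the pathway list per comparison that pass its rule, and the 3 genes most alike to each member with at least 1000 molecules, by Pearson r of log2(CPM + 10). Genes of the second list, which interleukin 1 induces, were also named where they passed. Members and lists were chosen with earlier results of these data known. Alternatives covered scaling (TMM, edgeR 4.0.16, R 4.3.3; S100a8 and S100a9 left out), stricter gates, cell filters, other S100a8 groups and each tag left out. Python 3.11.15, pandas 2.3.3 and scipy 1.17.1 were used.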

Additional observations from a re-analysis of the deposited data

How the results depend on the processing

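In neutrophil-gated cells Il1b was called lower in the anti-PD-1 pool under all 10 alternatives, with log2 differences from -1.10 to -0.74. Leaving out a tag or lifting the minimum of molecules could not lose this call, as neither can narrow the gap between the closest tags. The others could have lost it. There the nearest tags were 1.64-fold apart with TMM, 1.81-fold without S100a8 and S100a9 and 2.06-fold with stricter gates. They were 1.91-fold apart without the 5% of cells with most molecules and 1.66-fold with the same S100a8 mixture. Members called lower in neutrophil-gated cells numbered 1 in place of 3 under TMM scaling and with the same S100a8 mixture in every tag. Il1rn lost its call also without S100a8 and S100a9 (-0.49) and without the 5% of cells with most molecules (-0.59). Over all 300 genes, calls lower numbered 22 and 28 in place of 48 under TMM scaling and the same mixture. Calls higher numbered 15 with TMM, 11 without S100a8 and S100a9, 4 without the 5% of cells with most molecules, 15 without tag 2 and 11 without tag 3, in place of 7. Without S100a8 and S100a9, members called lower at high S100a8 numbered 3 in place of 6 and higher 1 in place of 0, Il1r2 turned to 0.23 and Casp1 to 0.89, and 56 genes were lower and 68 higher in place of 159 and 27. Members with their highest mean in neutrophil-gated cells numbered 4 in place of 2 on that scale, with Il1b and Nlrp3 added. The mean Il1rn ratio of macrophage-gated cells was 1.33 without the 5% of cells with most molecules. Members found in over 50% of neutrophil-gated cells numbered 4 without thinning, in place of 2. The causes of these shifts were not tested. Small gates limit the T, NK, macrophage and tumour-gated values, and leaving out a tag added single calls in the monocyte, tumour and macrophage gates, as did leaving out the 5% of cells with most molecules in the tumour gate. No paired analysis was possible because each pool is 1 sample.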
